A study of Mus musculus with 4 samples.

Results

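The Foxp1 locus was followed through 4 DNase-seq peak lists of mouse CD8+ T cells, as every listed peak with its midpoint between positions 98850000 and 99550000 of chromosome 6 (mm9). This window of 700 kb spans the gene, which runs from about 98.875 to about 99.473 Mb, and its flanks. It held 52 peaks, which merged into 33 separate sites out of 38986 in the whole series. Its members were selected on being listed as peaks in this window. The locus itself was chosen by earlier results of these data, among them a site called in both wild-type lists and no mutant list. That site, and the presence of the peaks themselves, are therefore described and not tested. Peak numbers and shares per library count these same peaks, that site included. Their p-values are given below as description and lend no support to a difference.

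DNase I cuts DNA where nucleosomes are loose or displaced, so a peak marks accessible chromatin. Both groups came from mice carrying hCD2-Cre, a recombinase under human CD2 control sequences, and the Rosa26-lsl-GFP reporter. The wild-type group (WT) had intact Tcf1 and Lef1 genes. The mutant group (double knockout, DKO) was double floxed and is labelled Tcf1-/-Lef1-/-. Naive cells were sorted from the spleen as GFP+, TCRbeta+, CD62Lhi, CD44lo-med and CD8+, and were kept for 72 h with IL-7 and IL-15. Each genotype has 2 libraries. The labels give no age, sex, strain or pooling of animals. They do not say that the replicates are separate animals or cultures, so differences between libraries may be technical. The p-values count regroupings of these libraries and do not measure that spread. The sorted cell type could not be checked against its marker genes, because no mm9 annotation was used here.

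Foxp1 encodes a forkhead-family transcription factor. In mature T cells it is known for holding naive cells in quiescence, in part by restraining IL-7 receptor expression, on which the related factor Foxo1 acts in the opposite direction. Tcf1 and Lef1 are HMG-box factors that bind a shared DNA motif and are needed for the T cell lineage. CTCF, named with Tcf1 in the title of the study, organises chromatin loops. The gene is transcribed from the minus strand, so its start lies at the high-coordinate end of the locus. The nearest protein-coding genes in RefSeq (GRCm38) are Gm765 beyond its end and Eif4e3 beyond its start, and no other protein-coding gene lies inside it.

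RefSeq lists 3 starts for Foxp1 on build GRCm38.p6. The 250 bases before each are shown, 5′ to 3′ on the gene's strand, because an accessible site in a gene of this size can lie at an inner start as well as at the outer one. These positions belong to another build than the peaks, and the peaks were not placed on them. Capitals mark matches to motif letters searched on both strands.
Foxp1 start 1, chr6:99520994-99521243, minus strand: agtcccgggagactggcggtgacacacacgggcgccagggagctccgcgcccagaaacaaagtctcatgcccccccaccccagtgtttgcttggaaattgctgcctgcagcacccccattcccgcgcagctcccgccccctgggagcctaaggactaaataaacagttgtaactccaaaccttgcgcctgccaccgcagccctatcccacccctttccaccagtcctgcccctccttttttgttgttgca
Foxp1 start 2, chr6:99266516-99266765, minus strand: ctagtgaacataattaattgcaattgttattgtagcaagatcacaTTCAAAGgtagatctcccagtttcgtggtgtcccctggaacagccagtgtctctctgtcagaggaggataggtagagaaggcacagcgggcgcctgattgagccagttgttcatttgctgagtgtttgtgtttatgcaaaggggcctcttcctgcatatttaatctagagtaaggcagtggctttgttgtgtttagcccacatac
Foxp1 start 3, chr6:99028299-99028548, minus strand: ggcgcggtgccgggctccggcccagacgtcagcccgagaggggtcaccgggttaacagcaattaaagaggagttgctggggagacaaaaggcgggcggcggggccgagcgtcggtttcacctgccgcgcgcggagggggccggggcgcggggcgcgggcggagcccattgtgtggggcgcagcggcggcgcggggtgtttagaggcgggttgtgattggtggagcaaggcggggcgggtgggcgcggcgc
The sequence before start 2 held 1 match to CTTTGAA, a TCF/LEF motif, on the strand opposite to the gene and beginning 205 bases before the start. Of 32817 promoter sequences of this length, 4.46% held that motif. None of the 3 sequences matched CTTTGAT (TCF/LEF, in 3.21% of promoters), TGTTTAC (forkhead, 3.16%), CCGGAAG (ETS, 6.9%) or a CTCF core motif (0.68%). Without a match, none of these motifs could overlap the CTTTGAA match. The sequences differed in base composition. Start 3 had 34 CpG dinucleotides and 74% G and C, more CpG than 96.5% of promoters. Start 1 had 11 CpG and start 2 had 3, beside a median of 6 over all promoters.

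The lists differed in length before the locus was considered. They held 17521 and 11073 peaks for WT replicates 1 and 2, and 34788 and 21353 for DKO replicates 1 and 2. The lowest background in a list, which grows with read depth, was 1.5 and 1.47 fragments per position in WT and 1.23 and 1.15 in DKO. The lists also differed on chromosome Y, with 0 peaks in either WT list and 55 and 57 in the DKO lists. A difference that goes with Y and one that goes with genotype cannot be told apart here.

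More Foxp1 sites were listed in the DKO cells. WT replicate 1 had 10 peaks in the window and WT replicate 2 had 2, while DKO replicates 1 and 2 had 26 and 14. The groups did not overlap. They did not overlap over the whole lists either, where the log2 difference of the mean peak numbers was 0.973. In the window the means were 6 ± 5.66 for WT and 20 ± 8.49 for DKO (SD, n = 2 each), a log2 difference of 1.74. An exact permutation test over libraries, two-sided, gave p = 0.33, which is the smallest value 2 against 2 can give. Without WT replicate 1 the log2 difference was 3.32, and without WT replicate 2 it was 1.0. The peaks covered 1391 and 447 bp in WT and 4313 and 2022 bp in DKO.

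**Figure D1:**
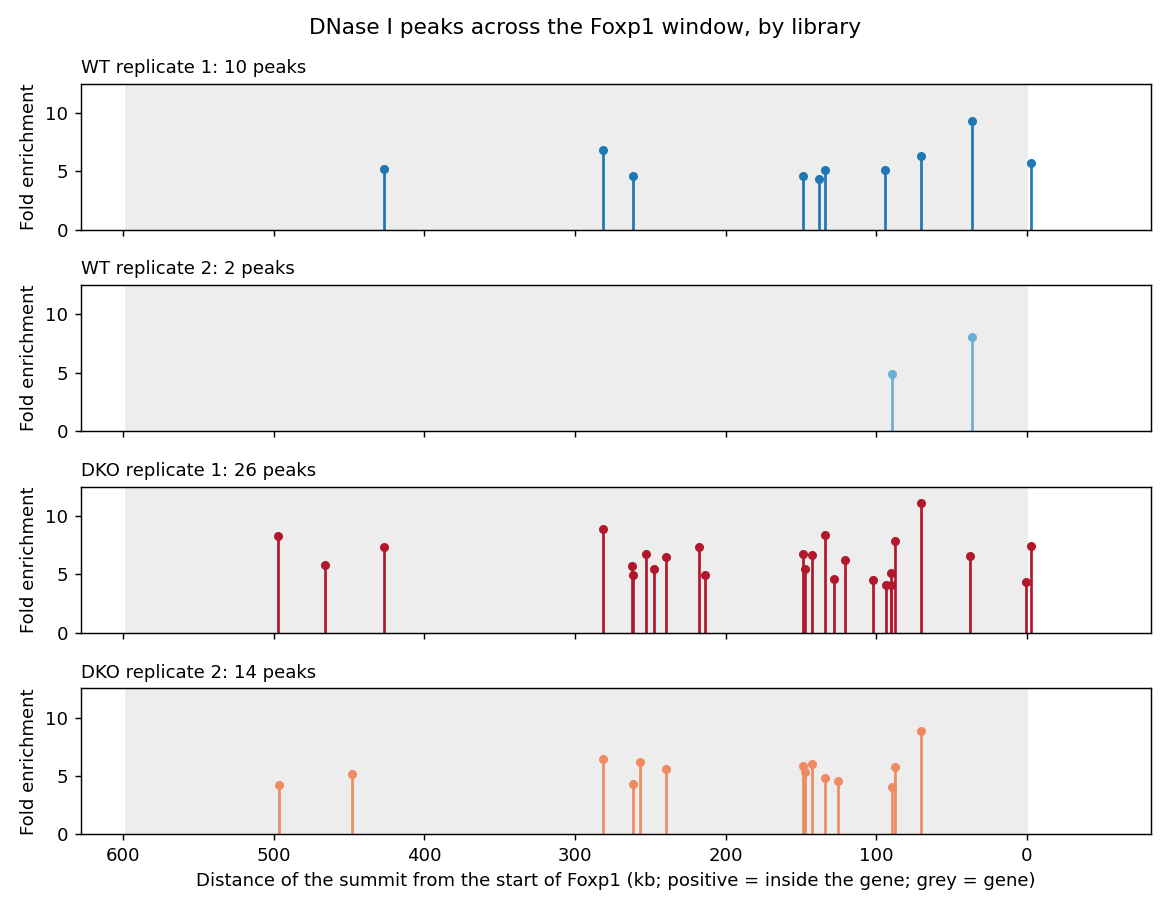
Each stem is a peak, at the distance of its summit from the quoted start of Foxp1 in kb (negative values lie before the start), and its height is the fold enrichment. The 4 panels are the libraries and grey marks the gene. Sites thin out toward the end of the gene on the left, and WT replicate 2 has 2 peaks.

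As a share of its list, the window took 0.0571% of the WT replicate 1 peaks (95% Wilson interval 0.031 to 0.105%). It took 0.0181% of the WT replicate 2 peaks (0.00495 to 0.0658%). For DKO replicates 1 and 2 the shares were 0.0747% (0.051 to 0.109%) and 0.0656% (0.0391 to 0.110%). These intervals cover counting error only, and all 4 overlap. The DKO mean exceeded the WT mean by 0.0326 percentage points (exact two-sided permutation p = 0.33, n = 2 each). Without WT replicate 2 this difference was 0.0131 percentage points.

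The direction turned when list length was made equal. When each list was held to its best 11073 peaks by −log10 p, WT replicates 1 and 2 kept 3 and 2 Foxp1 peaks and DKO replicates 1 and 2 kept 0 and 1. The log2 difference was then -2.32 and the difference in share -0.0181 percentage points (exact two-sided permutation p = 0.33, n = 2 each). The lowest −log10 p kept was 27.3 in DKO replicate 1 and 13.6 in DKO replicate 2, beside 10.8 and 5.40 in WT. The highest −log10 p of any Foxp1 peak in DKO replicate 1 was 24.5, so none could stay. At a −log10 q of at least 10 in every list, 12 peaks remained in DKO replicate 1 and 1 in each of the other libraries. The difference in share was then 0.0114 percentage points (exact two-sided permutation p = 1.0, n = 2 each), and the groups overlapped.

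**Figure D2:**
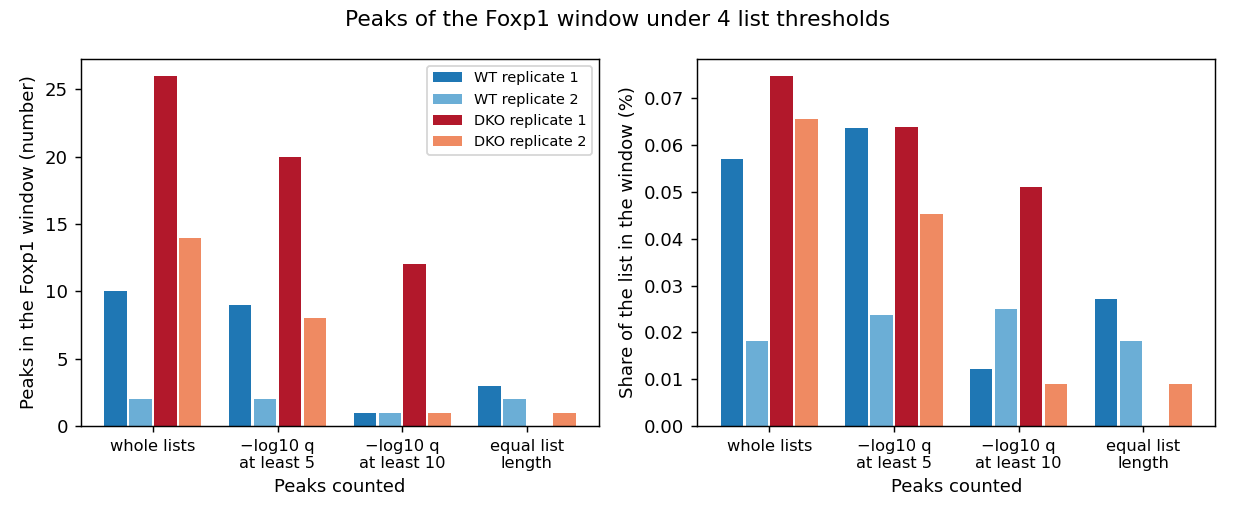
Bars give the number of Foxp1 window peaks (left) and their share of the list in percent (right) for each library, under 4 ways of cutting the lists. DKO bars are higher over whole lists, with 26 and 14 peaks against 10 and 2, and lower at equal list length, with 0 and 1 against 3 and 2.

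Foxp1 was crowded with sites, and in WT replicate 1 and both DKO lists most of them were weak for the list. Over 2723 windows of 700 kb on a fixed grid that held any site, the median was 11 sites, and 91.0% of windows held fewer than the 33 found here. Median peak numbers per such window were 5 and 3 in WT and 10 and 6 in DKO, so WT replicate 2, with 2, was the 1 list below its own median. Fold enrichment is the authors' ratio, read here as summit pileup plus 1 over local background plus 1. Its median was 5.15 among the Foxp1 peaks of WT replicate 1 against 6.43 in that whole list. In DKO replicate 1 these medians were 6.38 and 8.50, and in DKO replicate 2 they were 5.48 and 7.24. Of the Foxp1 peaks, 2 of 10 in WT replicate 1, 2 of 26 in DKO replicate 1 and 1 of 14 in DKO replicate 2 exceeded the median fold of their list. In WT replicate 2, where the medians were 6.49 and 6.13, it was 1 of 2.

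The sites were unevenly spread along the gene. Numbered from the gene's end to its start, site 1 begins at 98976209 and site 33 ends at 99475639. No peak of any library lay in the 126 kb between the lower edge of the window and site 1, nor in the 145 kb between sites 4 and 5. By stretches of 100 kb from the lower edge, the number of sites was 0, 4, 0, 7, 10, 10 and 2. The densest part was 78.4 kb from 99324544 to 99402935, toward the start of the gene, with 16 sites. There WT replicates 1 and 2 had 5 and 1 peaks, and DKO replicates 1 and 2 had 12 and 8.

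No site of the window was called in all 4 libraries, against 20.7% of the sites of the whole series. Sites called in a single list numbered 19 of 33, against 41.7% in the series. Of these, 17 were in a DKO list (13 in replicate 1 and 4 in replicate 2) and 2 in WT replicate 1, against 35.9% and 5.77% of the series for 1 list of either genotype. A further 3 sites had 1 call in each genotype (7.23% in the series) and 5 had both DKO calls and 1 WT call (13.9%). Both DKO lists shared 10 sites (48.9% in the series) and both WT lists shared 1 (22.9%). Of the 10 sites of WT replicate 1, DKO replicates 1 and 2 had calls at 7 and 4, which is 70% and 40%, against 87.7% and 73.8% over its whole list. Without WT replicate 2, which had 2 peaks, 4 of the 33 sites were called in each of the remaining libraries. Over the series it was 12572 of 38986 sites. Without WT replicate 1 the window had 1 such site, and without either DKO library 0. The share of the series was not taken for these.

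**Figure D3:**
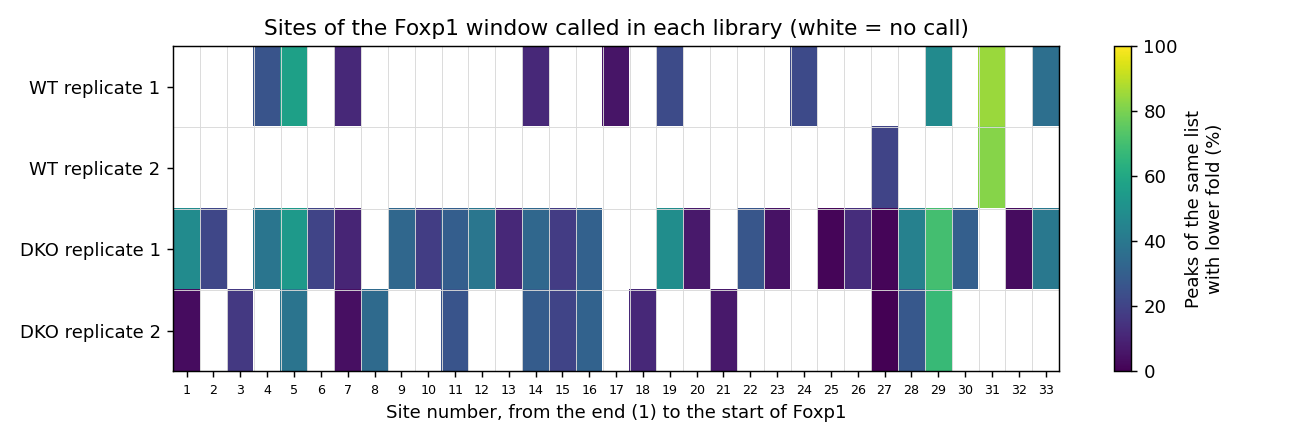
Columns are the 33 sites from the end of Foxp1 (1) to its start (33), rows are libraries, and colour gives the percent of that library's own peaks with a lower fold. White means no listed peak. Site 31 is filled in the WT rows alone, and at 85.1% and 81.7% it ranks highest in both.

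The strongest Foxp1 site of both WT libraries was site 31, 99436208 to 99436518, about 36.6 kb inside the gene from its start. Its fold was 9.27 in WT replicate 1 and 8.10 in WT replicate 2. The −log10 p was 24.0 and 17.1. It stood at place 2606 of 17521 and at place 2016 of 11073 by fold, above 85.1% and 81.7% of the peaks of those lists. Neither DKO list had a peak there. The WT summits lay 5 bp apart, at 99436420 and 99436415, although the peaks were 165 and 288 bp wide. Solved from fold and p, the summit pileup was 31 fragments over a background of 2.45 in WT replicate 1, and 22 over 1.84 in WT replicate 2. Sites called in both WT lists and no DKO list make up 0.631% of the series, 246 in all, and this one ranked 7 among them by the lower of its folds. It was known when the locus was chosen, so this is a description.

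In the DKO lists the nearest calls lay to the side of site 31. DKO replicate 1 had a peak 779 bp away toward the gene's end, site 30 (99435204 to 99435428), with a fold of 6.55, a pileup of 15 and a background of 1.44. In DKO replicate 2 the nearest peak was 33.3 kb away. At the lowest background of its list, a summit in either DKO library needed a pileup of 8 to pass the smallest fold and −log10 p listed. At the median background of its Foxp1 peaks it needed 11 in DKO replicate 1 and 12 in DKO replicate 2. The same levels in WT replicates 1 and 2 were 10 and 9 at the lowest background. At the median background of the Foxp1 peaks they were 14 and 12. A site below such a level is not listed, in WT or in DKO, and its pileup is not known. Peaks carry running numbers that increase along each file, and missing numbers are read here as peaks taken out after calling, which no label states. In neither DKO list was a number missing between the peaks that flank site 31.

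**Figure D4:**
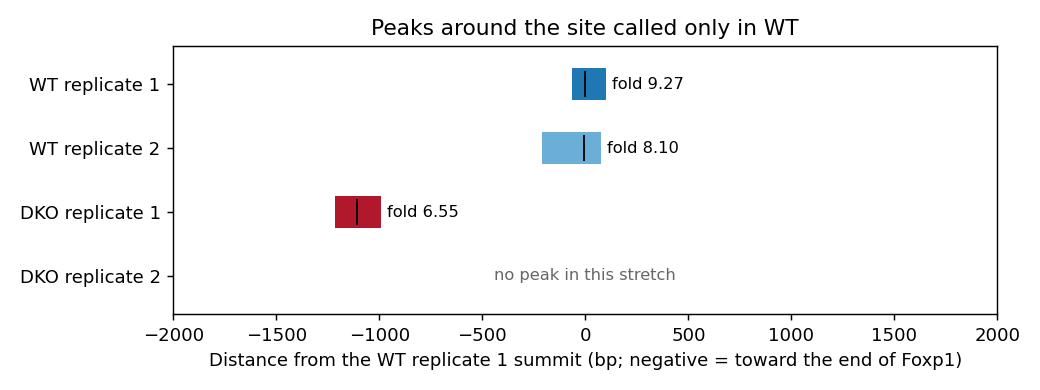
Bars are the listed peaks within 2000 bp of the WT replicate 1 summit of site 31, by library, with black ticks at the summits and the fold beside each bar. The WT peaks overlap with summits 5 bp apart, the DKO replicate 1 peak lies to one side, and DKO replicate 2 has none here.

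Sites called in both DKO lists and no WT list numbered 5 of 33, or 15.2%, close to the 14.3% of the series. Site 1, 98976209 to 98976386, lay nearest the gene's end and had folds of 8.26 and 4.24 in DKO replicates 1 and 2. Site 11, 99233258 to 99233453, had 6.5 and 5.62. The next 3 lay in the densest part of the gene. Site 15 (99325450 to 99325625) had folds of 5.47 and 5.33, and site 16 (99330200 to 99330412) had 6.62 and 6.01. Site 28 (99385100 to 99385497) had 7.85 and 5.73 and was the widest site of the locus, at 398 bp. Its pileup of 31 in DKO replicate 1 equalled that of site 31 in WT replicate 1, over a higher background of 3.08. By the lower fold, these 5 stood between places 2646 and 5288 among the 5593 such sites of the series. Their summits in the DKO replicates lay 5 to 111 bp apart.

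By the running peak numbers, WT replicate 1 lacked 5 numbers between its Foxp1 peaks, beside 10 listed. This is 33.3% of the 15, against 8.03% over its whole list. The shares were 10.3% against 4.07% in DKO replicate 1 and 6.67% against 4.08% in DKO replicate 2. In WT replicate 2, no number was missing between its 2 Foxp1 peaks, against 7.29% over its list. For sites 11, 15, 16 and 28, the WT replicate 1 peaks on either side had 1 number missing between them. Sites 15 and 16 lie in the same such gap. The other 2 missing numbers of WT replicate 1 fell in gaps without a DKO-only site. For site 1 none was missing in WT replicate 1. In WT replicate 2, sites 1, 11, 15 and 16 fell in a gap from 97757103 to 99383058 with 1 number missing, and at site 28 none was missing. The numbers do not tell where in the gap the removed peak lay, so whether it lay on the DKO site was not tested. With removed peaks counted in, the totals were 15 and 2 in WT and 29 and 15 in DKO, so that WT replicate 1 and DKO replicate 2 were equal and the groups no longer separate. Numbers missing in gaps that reach beyond the window are not in these totals.

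The strongest Foxp1 site of both DKO libraries was site 29, 99402735 to 99402935, about 70.2 kb inside the gene. Its fold was 11.1 in DKO replicate 1 and 8.81 in DKO replicate 2, above 70.1% and 67.6% of the peaks of those lists. WT replicate 1 also called it, with a fold of 6.33, and WT replicate 2 did not. The 3 summits fell within 6 bp of each other. The pileup was 18 in WT replicate 1 over a background of 2.0, 26 over 1.42 in DKO replicate 1 and 19 over 1.27 in DKO replicate 2. WT replicate 1 thus had nearly the pileup of DKO replicate 2 over a higher background.

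Site 5, 99191692 to 99191884, was the next strongest in WT replicate 1 and in both DKO libraries. Its folds were 6.85 in WT replicate 1, 8.89 in DKO replicate 1 and 6.45 in DKO replicate 2. The summits lay 6 to 29 bp apart. Site 19, 99339079 to 99339232, had folds of 5.09 in WT replicate 1 and 8.40 in DKO replicate 1, with summits 8 bp apart. DKO replicate 2 had a peak of fold 4.78 only 83 bp away (site 18), counted apart because it did not overlap. Merging peaks within 500 bp joined them and left 29 sites, still with none called in all 4 libraries and 1 called in both WT lists and no DKO list.

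A further 3 sites were called in 1 WT and both DKO lists. Site 7 (99211390 to 99211731) had folds of 4.57 in WT replicate 1 and of 4.93 and 4.32 in DKO. Its summits were up to 231 bp apart, the widest separation in the locus. The WT replicate 1 and DKO replicate 2 peaks of site 7 did not overlap each other and were joined through the DKO replicate 1 peak, so its count as a shared call rests on that peak. Site 14 (99324544 to 99324773) had 4.58 in WT replicate 1 and 6.77 and 5.85 in DKO. Site 27 (99383045 to 99383268) was the other peak of WT replicate 2, with a fold of 4.89, and had 4.05 and 4.02 in DKO. That last value lay just above 4.0, the smallest fold in its list. The WT replicate 2 and DKO replicate 2 summits of site 27 were 1 bp apart. Across all sites with more than 1 call, 10 of 24 pairs of summits lay within 10 bp, with a median of 23.5 bp.

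To set the libraries side by side at the same sites, folds were ranked among the 12572 sites called in WT replicate 1 and both DKO replicates. This leaves out WT replicate 2, and so has 1 WT library and no test. The ranks of the 4 Foxp1 sites of this kind went different ways. Site 5 ranked above 46.4% of these sites in WT replicate 1, and above 19.8 and 21.4% in DKO replicates 1 and 2. Site 7, joined as described, stood at 6.37% in WT replicate 1 and at 0.783 and 1.25% in DKO. Site 29 stood at 36.7% in WT replicate 1 and higher in DKO, at 39.9 and 52.3%. Site 14 stood at 6.47% in WT replicate 1 and at 6.28 and 13.9% in DKO, so its values overlapped. A rank higher in WT replicate 1 than in both DKO libraries occurred at 34.7% of all 12572 sites, and a rank higher in both DKO libraries at 35.2%.

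At the gene's start the calls were few. Site 33, 99475508 to 99475639, lay about 2.57 kb before the quoted start, with folds of 5.72 in WT replicate 1 and 7.46 in DKO replicate 1. It was not listed in either replicate 2. Site 32 (99472602 to 99472686), with a summit 0.34 kb inside the quoted start, was called in DKO replicate 1 alone with a fold of 4.30. The start is given to the nearest kb, so these distances are approximate. The site nearest the gene's end and shared between genotypes was site 4, 99046169 to 99046308, with folds of 5.20 in WT replicate 1 and 7.32 in DKO replicate 1 and summits 2 bp apart. At the window's upper edge, DKO replicate 1 had a peak of fold 7.18 that fell 0.392 kb outside. The nearest peaks of the other libraries on that side were 55.6 to 85.1 kb outside.

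The remaining sites were weak. The 13 sites called in DKO replicate 1 alone had folds of 4.07 to 7.36 and pileups of 9 to 23 fragments. The 4 called in DKO replicate 2 alone had folds of 4.53 to 6.15 and pileups of 10 to 18. The 2 called in WT replicate 1 alone, sites 17 and 24, had folds of 4.34 and 5.07 and pileups of 16 and 18. All 19 of these single-list peaks lay below the median fold of their own list, the highest of them above 39.3% of its peaks.

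Local background at the Foxp1 peaks had a median above that of each list, most clearly in WT replicate 1 and DKO replicate 2. Its median was 2.58 fragments per position in WT replicate 1 against 2.1 over its list, and 2.16 against 2.0 in WT replicate 2. It was 1.86 against 1.75 in DKO replicate 1 and 2.11 against 1.62 in DKO replicate 2. Foxp1 peaks of WT replicates 1 and 2 had median pileups of 17.5 and 19, against 19 and 18 over their lists. Those of DKO replicates 1 and 2 had 20.5 and 14.5, against 22 and 18. The background at the Foxp1 peaks was thus above the list median in every library, and the pileup was below it in all but WT replicate 2.

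**Figure D5:**
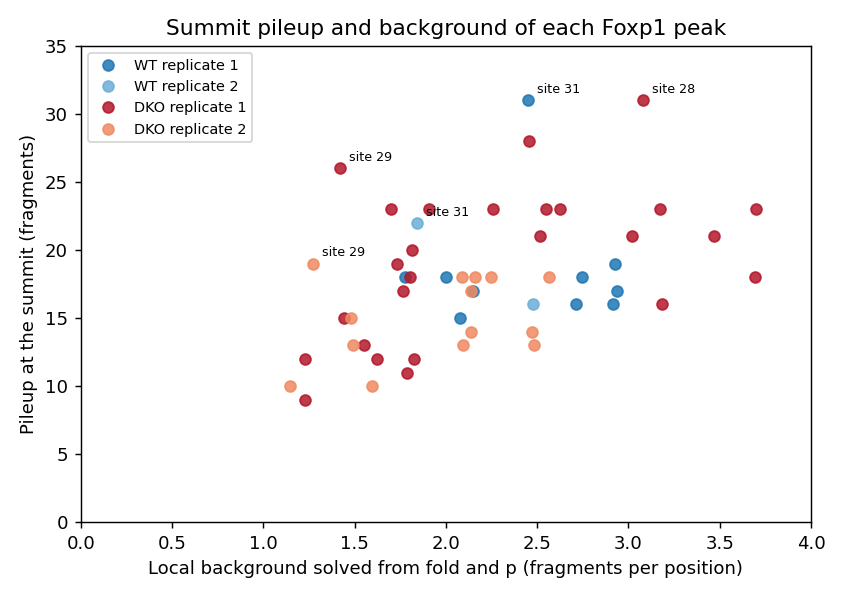
Each point is a Foxp1 peak, with the local background (fragments per position) on the horizontal axis and the summit pileup (fragments) on the vertical axis, coloured by library. Labels mark peaks of sites 28, 29 and 31 with pileups above 18. Site 31 in WT replicate 1 and site 28 in DKO replicate 1 share the highest pileup, 31.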

How the data were processed

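Libraries were grouped by genotype and replicate number from the sample titles. Per the submitters' processing notes, Bowtie2 2.2.5, FastQC, MACS2 2.1.1 and build mm9 were used. Of caller settings, control library and duplicate handling nothing is given in the sources used here. Per library the authors deposited peaks with a fold enrichment (a ratio), the −log10 p and the −log10 q, a score of 10 times the latter, and a summit position. Starts were converted to count from 1. Read totals are not in the lists, so depth is unknown.

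Peaks overlapping by at least 1 bp were merged into sites, and a site was called in a library that had a peak in it. Pileup and background were solved from fold and p for peaks with −log10 p under 60. Fold was taken as pileup plus 1 over background plus 1. The solution gave 100% within 0.02 on the −log10 p scale. Merging and solving were tested on simulated data (1000 sites and 1267 peaks, 100% recovered). Peak numbers and shares were compared with exact two-sided permutation tests over libraries, as a description, since the locus was chosen by earlier results of these data.

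Members, motif list and tests were chosen with earlier results of these data known. Sites described singly were, by rule, those called in all 4 libraries, those in both lists of 1 genotype only, and the 3 of highest fold among the rest (5, 19 and 29). Sites 4, 7, 14, 17, 18, 24, 27, 30, 32 and 33, the running peak numbers and the summit distances were chosen after their values had been seen. Other settings were a −log10 q of at least 5 or 10, equal list length, the gene without flanks, merging within 500 bp, a stricter overlap, ranking by −log10 p and leaving out each library. A planned list of other quiescence genes, marker genes and motifs in peaks needed an mm9 genome or annotation and was not analysed here. Python 3.11.15, pandas 2.3.3, numpy 2.4.6 and scipy 1.17.1 were used.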

Additional observations from a re-analysis of the deposited data

How the results depend on the processing

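The difference in peak number kept its direction in 8 of 9 settings and so did the difference in share. Leaving out a library or blocking by replicate number could not reverse either. With all peaks counted, neither the peak numbers nor the shares of the window overlapped between the groups. The peak numbers of the whole lists did not overlap either. How often other windows show this order of shares was not counted, so it is not read as a trait of Foxp1. Without its flanks the gene still held 9 and 2 peaks in WT and 25 and 14 in DKO. At equal list length both differences reversed, to -2.32 (log2) and -0.0181 percentage points. At a −log10 q of at least 5 and 10 the difference in share kept its direction but fell to 0.0109 and 0.0114 percentage points (exact permutation p = 0.67 and 1.0), and the groups overlapped: DKO replicate 2 had 0.0452% against 0.0637% in WT replicate 1 at 5, and 0.00895% at 10, below both WT libraries. The log2 differences in peak number were 1.35 and 2.70 there, with the same p-values. At equal list length, with only the best 11073 peaks of each list counted, 0 DKO-only sites and 4 sites in all were left. At a −log10 q of at least 10 there were 1 DKO-only site and 13 sites. The WT-only site stayed at 1 in every setting except without WT replicate 2, where the count was 3. This was largely fixed in advance and is no support, since neither DKO list has a peak at site 31. Its −log10 q of 19.6 and 12.8 in WT replicates 1 and 2 also passes both cuts. Leaving out 1 library at a time gave log2 differences in peak number of 1.0 to 3.32 and differences in share of 0.0131 to 0.0521 percentage points. It gave 0 to 4 sites called in every remaining library, 6 to 18 DKO-only and 1 to 3 WT-only sites. It gave 0 to 1 shared sites ranking higher in DKO, 0 to 2 ranking higher in WT, and 21 to 33 sites in all. With fewer lists a site has fewer to be called in or absent from, which by itself can raise these class counts. Except for the sites called without WT replicate 2, given above, shares of the series were not taken for the counts of the altered settings. Such counts are therefore not read as traits of the locus. With all 4 libraries no shared site existed to rank, whether by fold or by −log10 p. The overlap rule as planned, a peak lying by at least 0.5 of its width inside its site, holds for every peak by construction. Requiring a peak to cover at least 0.5 of its site, added after seeing the data, left 4 DKO-only and 1 WT-only sites.

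The replicate numbers are shared between genotypes, but nothing says that they pair the libraries. With the replicate number as a block the log2 difference in peak number was 2.09 and the difference in share 0.0326 percentage points (exact paired permutation p = 0.50, the smallest that 2 pairs allow). Pairing could not be checked beyond this with 2 pairs.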
